A study of Mus musculus with 16 samples.

Results

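Nuclear genes of oxidative phosphorylation were followed in the central gel tissue of the mouse intervertebral disc, the nucleus pulposus, in animals of 2 genotypes and 2 ages. A probe set was taken when its platform gene symbol began with Nduf followed by a, b, c, s or v and a number, with Uqc, with Cox4 to Cox8 or with Atp5, or was Sdha, Sdhb, Sdhc or Sdhd, pseudogenes left out. This gave 87 genes with 1 probe set each, of 22206 probe sets on the array. By symbol, 37 belonged to complex I, 4 to complex II, 11 to complex III, 18 to complex IV and 17 to complex V. The rule also took genes that are not subunits: Uqcc1, Uqcc2 and Uqcc3 are assembly factors of complex III, and Cox7a2l is a factor of respiratory supercomplexes. Ndufa4 was counted with complex I by its name, although its protein is found with complex IV. Of the 13 subunits encoded by mitochondrial DNA, 0 were measured.

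The arrays were Affymetrix expression arrays of total RNA labelled with biotin, 16 in all and 4 for each combination of genotype and age. Control mice (CT) carried the floxed gene of the hypoxia-inducible factor HIF-2α (HIF-2αf/f) and no Cre. The conditional knockout mice (cKO) carried the same floxed alleles together with FoxA2Cre, so that the floxed alleles are shared by all groups and Cre is present in the cKO groups alone. In the FoxA2Cre line the recombinase follows Foxa2, a gene of the notochord from which the nucleus pulposus descends. Tissue was taken at 6 or 14 months of age. Each group had 4 mice by the series' design, but whether 1 array holds the tissue of 1 mouse is not stated, so the p-values measure the spread between these arrays.

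Oxidative phosphorylation is the work of 5 enzyme complexes of the inner mitochondrial membrane. Complexes I and II pass electrons from NADH and succinate to ubiquinone, complex III passes them to cytochrome c, and complex IV passes them to oxygen, while complexes I, III and IV pump protons. Complex V, the ATP synthase, lets the protons flow back and makes ATP. The nucleus pulposus has no blood vessels, is poor in oxygen and is known for its reliance on glycolysis, and some subunits have isoforms that are induced under low oxygen.

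Many promoters of these genes are known to hold sites for the factors NRF1, GABPA, YY1 and ERR, so the promoter windows were read first. RefSeq windows of build GRCm38.p6, from 250 bases before to 50 bases after the start of each gene, matched 72 of the 87 genes. On either strand, the letters GCGCA, any base, then GCGC (NRF1) stood in a window of 18 of these 72 genes (25.0%) against 5.19% of all 27025 genes, a gene being counted when any of its windows held the letters. CCGGAAG (GABPA) stood in 17 (23.6% against 9.93%), AAGATGGCG (YY1) in 7 (9.7% against 1.64%) and AAGGTCA (ERR) in 9 (12.5% against 5.38%). At least 1 of these 4 motifs was found for 38 of the 72 genes. None was found for the other 34, among them Ndufv1, Ndufa12 and Ndufa10, whose age changes are described below. The core ACGTG of the HIF site, which is short and frequent, stood in 19 (26.4% against 21.78%). A match to letters describes the window and shows no binding. The last 120 bases before the start are given for 5 genes described below, 5′ to 3′ on the strand of the gene, with the motif letters in capitals. All 5 hold such letters, so they are examples and do not stand for the 87 genes or for those with the strongest age changes. The windows lie on the minus strand at chr9:50603850-50603969 (Sdhd), chr2:36049339-36049458 (Ndufa8), chr16:37654369-37654488 (Ndufb4), chr2:90904722-90904841 (Ndufs3) and chr2:73911327-73911446 (Atp5g3).
Sdhd: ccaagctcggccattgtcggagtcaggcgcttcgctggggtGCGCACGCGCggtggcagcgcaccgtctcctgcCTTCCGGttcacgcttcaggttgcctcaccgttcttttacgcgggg
Ndufa8: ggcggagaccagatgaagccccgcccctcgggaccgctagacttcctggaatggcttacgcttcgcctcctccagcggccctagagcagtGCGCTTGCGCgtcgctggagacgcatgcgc
Ndufb4: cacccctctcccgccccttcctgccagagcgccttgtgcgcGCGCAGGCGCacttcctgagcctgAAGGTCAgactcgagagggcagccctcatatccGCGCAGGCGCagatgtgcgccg
Ndufs3: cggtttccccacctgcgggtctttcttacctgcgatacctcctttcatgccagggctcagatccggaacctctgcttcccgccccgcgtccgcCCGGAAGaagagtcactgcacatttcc
Atp5g3: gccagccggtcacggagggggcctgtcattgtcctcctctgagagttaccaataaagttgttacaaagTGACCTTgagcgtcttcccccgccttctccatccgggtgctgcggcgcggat
The Sdhd stretch shows the letters of NRF1 and, on the opposite strand, of GABPA, the Ndufa8 stretch those of NRF1 on the opposite strand, and the Ndufb4 stretch those of NRF1 at 2 places with ERR between them. In Ndufs3 the capitals mark GABPA, and in Atp5g3 they mark ERR on the opposite strand.

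Features of the whole series bear on what follows. Epas1, which encodes HIF-2α, was not lower on the arrays labelled cKO: it read 8.34, 10.63, 8.46 and 10.60 (log2) in 6-month control and 10.41, 9.79, 10.63 and 10.68 in 6-month cKO, then 10.15, 11.02, 11.81 and 9.79 in 14-month control and 12.26, 11.73, 12.37 and 11.68 in 14-month cKO. Whether this probe set reads the deleted exons is not known here, so it does not check the labels, and every genotype difference is one between arrays so labelled. By 3 Y-linked genes, 0 of 4 arrays were male in 6-month control, 3 in 6-month cKO, 1 in 14-month control (array 4) and 3 in 14-month cKO, so sex is unequal between the groups. Over 13 neutrophil and marrow markers, the median deviation was 1.95 and 2.76 (log2) on 6-month cKO arrays 3 and 4 and between -0.98 and 0.56 on the other arrays, and their median level was 4.60 to 6.28 in 6-month control, 5.02 to 8.21 in 6-month cKO and 4.04 to 4.82 at 14 months. The median deviation of 14 skeletal muscle markers was 1.32 on 14-month control array 4 and at most 0.18 elsewhere. Probe sets of odorant and pheromone receptor genes, 1414 in all and not known to be used in this tissue, served as a floor through their median in each group. Of 12 nucleus pulposus and notochord markers, Car12 lay below it in all 4 groups, Foxa1 in both 6-month groups and Foxa2 in 6-month control. With age, 3 of the 12 were higher (Krt8, Foxa1 and Foxa2) and 3 lower (Krt18, Shh and Col2a1) in control, and 1 higher (Foxa1) and 2 lower (Krt18 and Shh) in cKO, Krt18 by -1.81 ± 0.35 and -3.72 ± 0.35 (SE). Of 5 erythroid markers 3 were lower with age in control and 2 in cKO, and their median deviation was 0.11 to 0.86 on the 6-month and -0.62 to -0.13 on the 14-month arrays. Of the 13 neutrophil and marrow markers 1 was lower with age in control (7.7%) and 9 in cKO (69.2%). Of all probe sets 16.8% were higher and 17.3% lower with age in control, and 12.7% and 10.2% in cKO. The shares of the nucleus pulposus markers, 25% higher and 25% lower in control and 8.3% and 16.7% in cKO, were not far from these. The part of all these marker lists in the age differences was not tested. The interquartile range of all probe sets was 3.30 ± 0.15, 3.56 ± 0.17, 3.85 ± 0.21 and 3.95 ± 0.09 (SD, n = 4) in these 4 groups in the order named, so bright probe sets tended to read higher at 14 months.

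To see all 87 genes at once, each value was set against the mean of its gene over the 16 arrays, and the median of these deviations was taken per array. It was -0.68, -0.26, -0.63 and -0.71 in 6-month control, and 0.22, -0.61, -0.33 and -0.01 in 6-month cKO. At 14 months it was 0.04, 0.48, 0.32 and 0.55 in control and 0.26, 0.33, 0.54 and 0.51 in cKO. All 8 arrays of 14 months lay above 0, and the 14-month arrays of control did not overlap with those of 6 months. In cKO they did not overlap either, but came close: 6-month array 1, the female one, reached 0.22 against a lowest 14-month value of 0.26. The 6-month cKO group had the widest spread (SD 0.36, against 0.14 to 0.23 in the other groups).

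**Figure D1:**
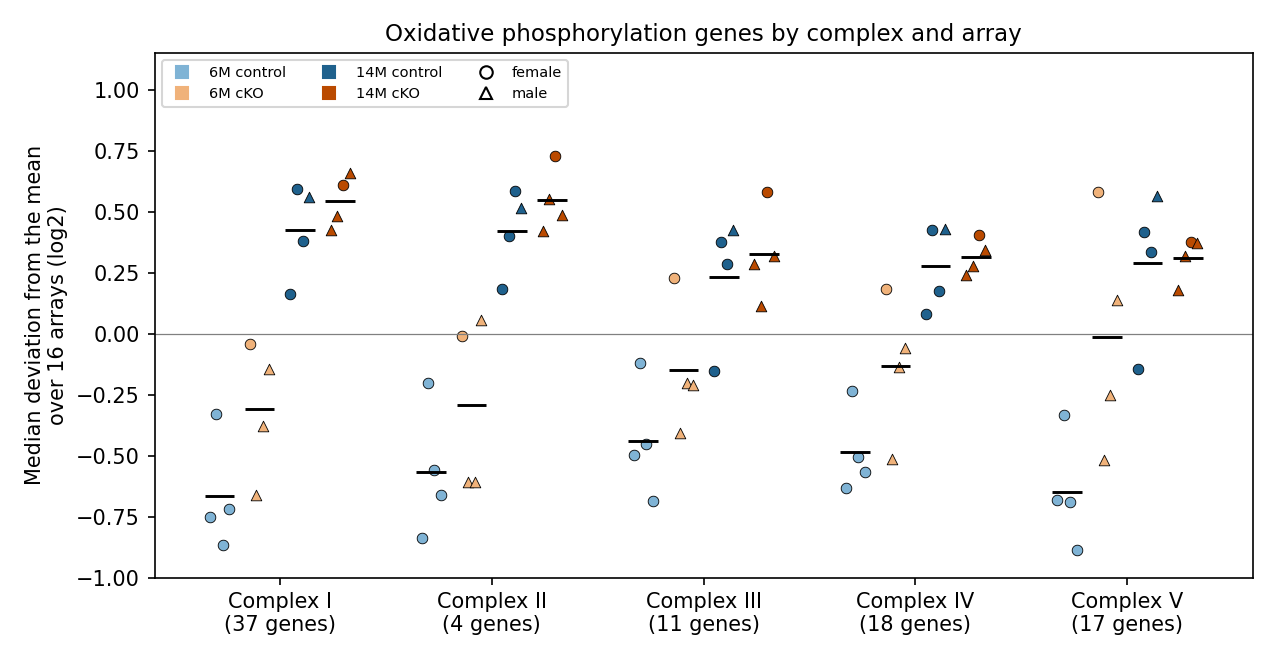
Median deviation of the genes of each complex from their means over 16 arrays (log2, vertical axis) for every array, by complex and group; circles are female and triangles male arrays, and bars are means of 4 arrays. Complex V shows the widest spread in 6-month cKO, from -0.52 to 0.58, while the 6-month control arrays lie below 0 in all 5 complexes.

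Age in control mice was the comparison in which most of these genes differed. At a limma adjusted p under 0.05, Benjamini-Hochberg over all 22206 probe sets, 53 of 87 genes were higher and 4 lower at 14 months, where 16.8% of all probe sets were higher and 17.3% lower (34.1% in either direction). The median change of the 87 was 0.85 (log2), against -0.10 for all probe sets and 0.23 for the 12421 whose value exceeded the median of the array on 4 or more arrays, of which 28.8% were higher. For 47 of the 87 genes every 14-month control array lay above every 6-month control array and for 4 below, against 14.9% and 14.5% of all probe sets. Shifting the arrays to one median moved the median of all probe sets from -0.10 to 0.10 and the share of higher among all calls from 49.2% to 67.4%, with 62 of the 87 genes higher and 2 lower. Quantile normalization gave 43 higher and 3 lower. In bulk tissue, fewer cells of a type and less RNA per cell cannot be told apart.

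Complex I, which takes electrons from NADH, had 25 of 37 genes higher and 1 lower with age in control, with a median change of 1.10. Of its 6 core subunits on the array 4 were higher: Ndufv1, Ndufv2, Ndufs3 and Ndufs7. Ndufv1, which binds the flavin that receives the electrons of NADH, read 9.84, 9.69, 10.10 and 10.36 at 6 months and 11.85, 11.72, 11.95 and 12.03 at 14 months. The ages did not overlap, and the change was 1.89 ± 0.22 (SE; 3.71-fold, limma adjusted p = 1.27e-05). Ndufs3, a core subunit of the peripheral arm whose window holds the GABPA letters, went from 10.95 ± 0.36 to 12.45 ± 0.09 (SD, n = 4), a change of 1.5 ± 0.22 (SE; adjusted p = 8.6e-05). The other core subunits, Ndufs1 (0.53 ± 0.26) and Ndufs8 (0.80 ± 0.31), did not pass.

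Among accessory subunits of complex I, which surround and stabilise the core, 19 of 29 were higher and 1 lower in control. Ndufa12 went from 11.72 ± 0.30 to 13.28 ± 0.29, Ndufb9 from 11.49 ± 0.34 to 13.30 ± 0.20 and Ndufa1 from 7.69 ± 0.26 to 9.19 ± 0.25 (SD, n = 4). Their limma adjusted p-values were 3.07e-05, 4.93e-05 and 4.36e-05. Ndufb4, with the NRF1 letters 3 times in its window, rose by 1.21 ± 0.25 (SE). Its near copy Ndufb4b rose by 2.04 ± 0.41, but the pair share most of their sequence, so the split between them is uncertain. The exception was Ndufa3, an accessory subunit of the membrane arm: it read 12.23, 12.45, 11.91 and 12.21 at 6 months and 11.53, 11.48, 11.39 and 11.45 at 14 months. All 4 older arrays lay below the younger ones, and the change was -0.74 ± 0.22 (SE, limma adjusted p = 0.017). With the arrays shifted to one median it was -0.54, with an adjusted p of 0.0895. Ndufv3, an accessory subunit that reads low on the array, rose by 1.17 ± 0.30.

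Complex II, succinate dehydrogenase, is encoded by nuclear genes alone. Sdhb, its iron-sulfur subunit, read 8.81, 8.97, 9.27 and 8.99 in 6-month control, and 10.62, 10.98, 10.68 and 11 in 14-month control. All 4 older arrays stood more than 1 unit above all younger ones. The change of 1.81 ± 0.19 (SE; 3.51-fold) had the smallest p of the 87 genes (limma adjusted p = 4.93e-06). The membrane anchor Sdhd, whose window is printed above, read 7.79, 8.98, 7.91 and 8.27 and then 9.32, 10.17, 10.06 and 10.49, a rise of 1.77 ± 0.32 with no overlap. The catalytic flavoprotein Sdha (0.33 ± 0.25) and the other anchor Sdhc (0.22 ± 0.20) did not pass the test in control, so the 4 subunits of this enzyme differed among themselves.

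Complex III, the cytochrome bc1 complex, had 4 of 11 genes higher and 0 lower in control, with a median of 0.65. The share higher (36.4%) was near the 28.8% of probe sets that exceeded the array's median on 4 or more arrays. Uqcrc1, a core protein of the complex, read 6.32, 6.43, 6.70 and 5.60 at 6 months and 8.17, 8.40, 8.29 and 8.84 at 14 months. This was the largest rise of the 87 genes in control, 2.16 ± 0.27 (SE; 4.48-fold, limma adjusted p = 2.29e-05), and the other core protein, Uqcrc2, changed by 0.08 ± 0.25 without passing. The Rieske iron-sulfur protein Uqcrfs1 went from 7.05 ± 0.20 to 8.39 ± 0.37 and the small accessory subunit Uqcrb from 16.03 ± 0.23 to 17.13 ± 0.31 (SD, n = 4), both past the test. Uqcr10 was the remaining riser. Of the 3 assembly factors 0 passed (0.02 to 0.75), and Uqcr11, another small accessory subunit, stood at 0.65 ± 0.26 (SE, limma adjusted p = 0.059).

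Complex IV, cytochrome c oxidase, had 10 of 18 genes higher and 3 lower with age in control. The 10 were among its 11 general subunits and factors, and the 3 (Cox4i2, Cox6a2 and Cox7b2) among its 7 tissue-specific or inducible isoforms. The other 4 isoforms did not pass and had changes of either sign, and the difference between these kinds of gene was not tested. Cox7b read 10.07, 10.72, 10.52 and 9.72 at 6 months and 11.77, 12.68, 12.18 and 12.15 at 14 months, a rise of 1.94 ± 0.32 (SE, limma adjusted p = 0.000223). Cox7c went from 16.62 ± 0.05 to 17.45 ± 0.10 (SD, n = 4). Among the calls of this complex, Cox6a1 (0.97 ± 0.36) and Cox7a2l (0.73 ± 0.27) lay near the threshold, overlapped between the ages and lost the call in 8 of 16 omissions each. Without 14-month control array 4, the one with high muscle markers, they were 0.66 (adjusted p = 0.177) and 0.46 (adjusted p = 0.179). Cox5a, at 0.60 ± 0.23, did not pass.

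Complex V, the ATP synthase, had 12 of 17 genes higher and 0 lower in control, with a median change of 0.91. All but 1 of the 5 genes of the catalytic F1 head were higher, by 0.69 (Atp5a1, alpha), 0.73 (Atp5b, beta), 0.91 (Atp5c1, gamma) and 0.79 (Atp5e, epsilon), while Atp5d, delta, stood at -0.06 ± 0.37. Atp5o, which encodes the peripheral stalk protein OSCP, read 8.36, 8.87, 7.17 and 7.97 and then 9.76, 10.05, 9.99 and 10.74, a rise of 2.04 ± 0.38 (SE; 4.12-fold). Its 6-month arrays spanned from 7.17 to 8.87, yet the ages did not overlap. Atp5h, another stalk protein, did not pass, at -0.10 ± 0.22, and Atp5k, subunit e, which reads low, stood at 0.25 ± 0.28. Without 14-month control array 4, Atp5a1 was at 0.53 with an adjusted p of 0.0798, and Atp5e lost its call at worst to an adjusted p of 0.142 without 6-month control array 3.

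Across the 57 calls in control, 48 were kept when each of the 16 arrays was left out in turn. The 9 that were lost at least once were Atp5a1, Atp5c1, Atp5e, Atp5j, Cox6a1, Cox6a2, Cox7a2l, Ndufa4l2 and Ndufb5. The count of calls ranged from 50, without 14-month control array 2, to 62, without 14-month control array 1.

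**Figure D2:**
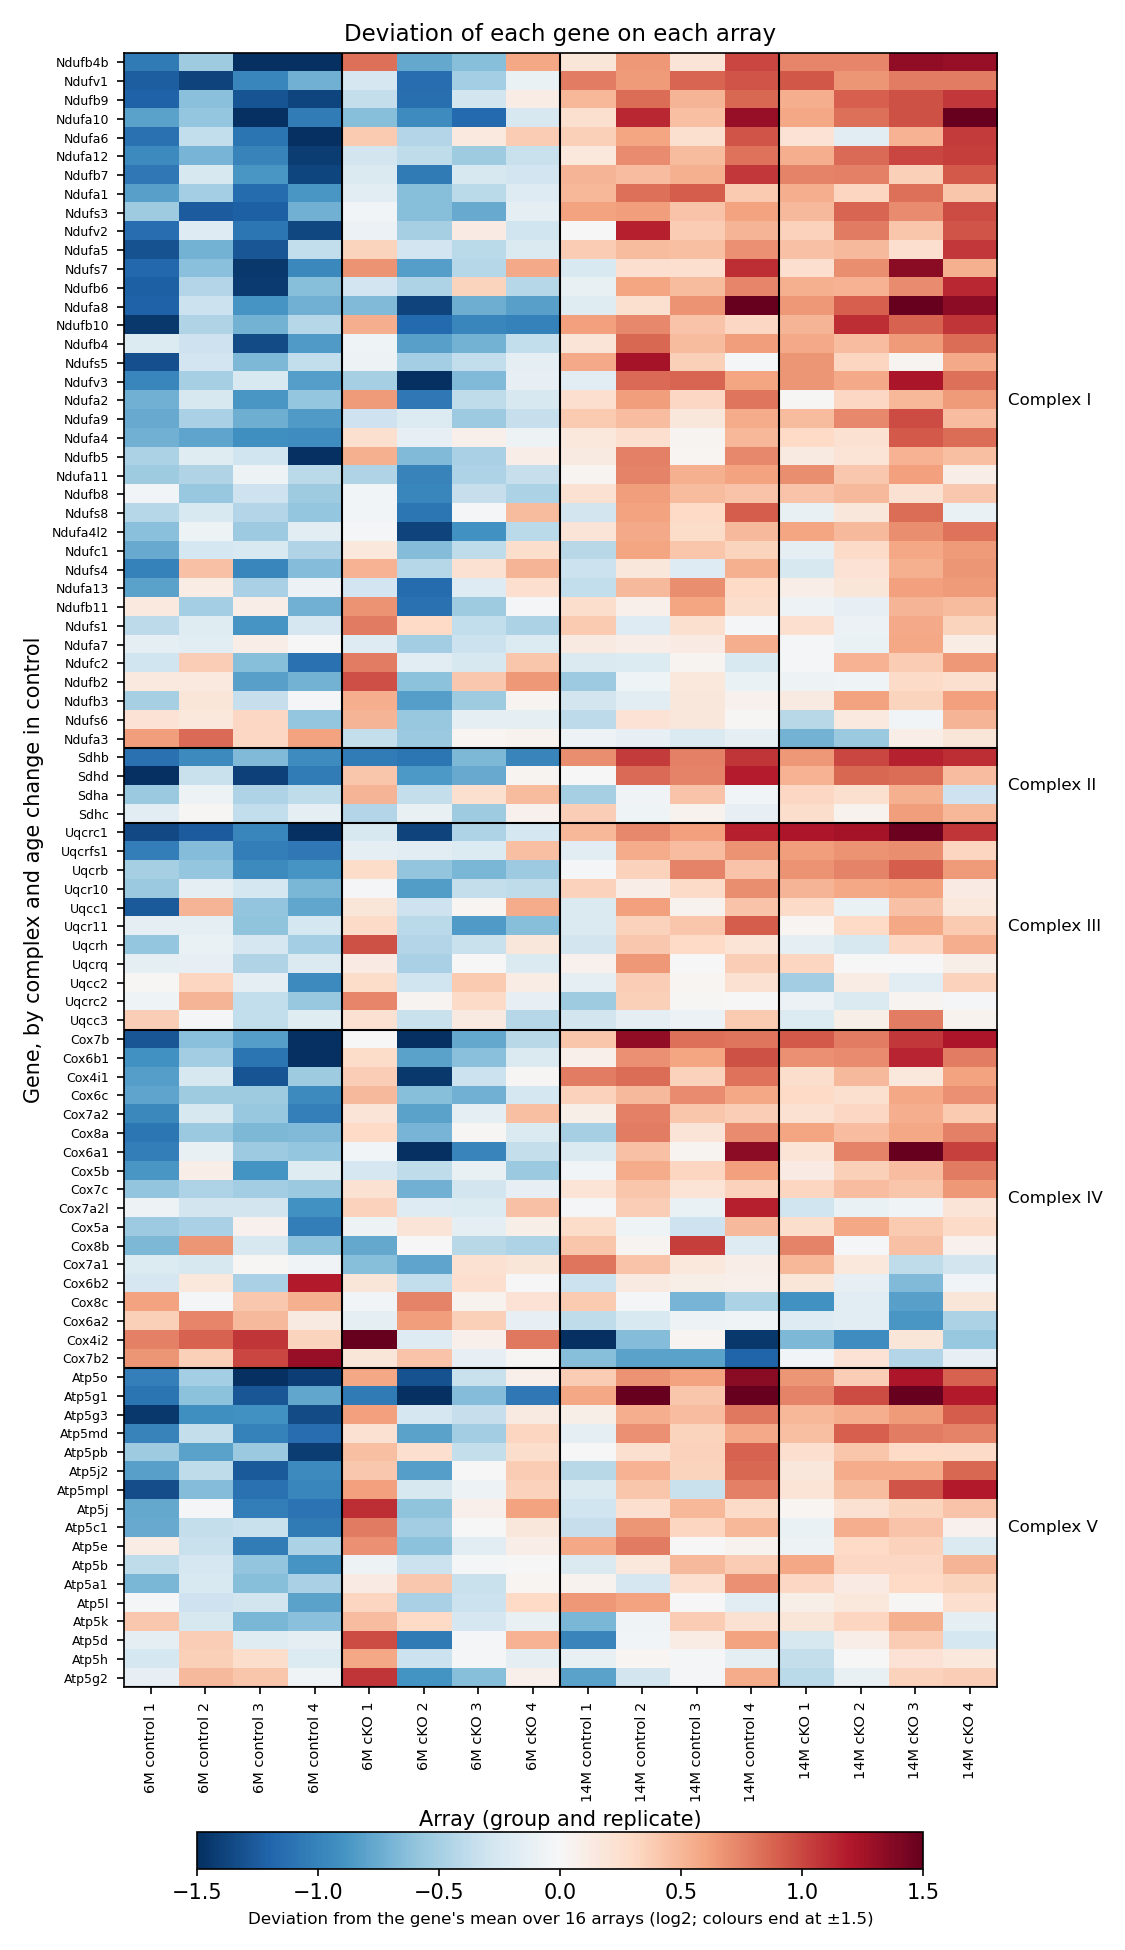
Deviation of each of the 87 genes (rows, by complex and by age change in control) from its mean over 16 arrays (columns, by group), in log2 units with colours ending at -1.5 and 1.5. Blue in 6-month control and red at 14 months mark most rows. The 6-month cKO arrays differ among themselves, with median deviations from -0.61 to 0.22. At the foot of complex IV, Cox4i2 and Cox7b2 run the other way in control.

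The arrays labelled cKO showed fewer calls with age. Here 33 of 87 genes were higher and 1 lower at 14 months, where 12.7% of all probe sets were higher and 10.2% lower (22.9% in either direction). The median change was 0.61 (log2), against -0.08 for all probe sets. For the 12421 that exceeded the array's median on 4 or more arrays it was 0.16, and 21.3% of these were higher. In 33 genes every 14-month array lay above every 6-month array and in 1 below, against 13.6% and 11.4% of all probe sets. Shifting the arrays to one median gave 40 higher and 0 lower, with the share of higher among all calls going from 55.5% to 68.1%. With male arrays only, 3 of each age, 36 were called and the median was 0.65. With female arrays only, 1 of each age and the spread taken from the other groups, 3 of 87 genes and 296 of all 22206 probe sets were called, and that fit says nothing about sex. Leaving out single arrays gave 25 to 41 calls, 25 without 6-month cKO array 2 or without 14-month cKO array 4, and without arrays 3 and 4 of 6-month cKO, which had high neutrophil markers, 26 genes were called at a median of 0.63.

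The strongest changes in cKO were again spread over the complexes. Sdhb read 8.88, 8.84, 9.25 and 8.94 at 6 months and 10.58, 10.93, 11.08 and 11.03 at 14 months, a change of 1.93 ± 0.19 (SE; 3.80-fold, limma adjusted p = 2.49e-06). Atp5g1, one of the genes for the rotating c ring of ATP synthase, read 10.43, 9.33, 10.84 and 10.42 and then 12.23, 12.47, 13.17 and 12.68, the largest rise in cKO at 2.38 ± 0.33 (5.21-fold). Uqcrc1 rose by 1.84 ± 0.27, from 7.09 ± 0.54 to 8.93 ± 0.17 (SD, n = 4). In none of these 3 genes did the ages overlap.

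Within complex I, 18 of 37 genes were higher in cKO and 0 lower. Ndufa8, an accessory subunit whose window holds the NRF1 letters, read 12.54, 11.81, 12.47 and 12.38 at 6 months and 13.85, 14.09, 14.81 and 14.54 at 14 months. Its change of 2.02 ± 0.31 (SE; 4.06-fold) compares with 1.34 ± 0.31 in control. Ndufa12 (1.24 ± 0.20), Ndufa10 (1.73 ± 0.29), Ndufv1 (1.28 ± 0.22) and Ndufa9 (1.01 ± 0.18) followed by p. Complex II had 3 of 4 genes higher, Sdhd by 0.96 ± 0.32 and Sdhc by 0.61 ± 0.20, the latter being the gene called in cKO and not in control. Without 14-month cKO array 3, Sdhc had an adjusted p of 0.105, and Sdhd lost its call in 6 of 16 omissions, at worst to an adjusted p of 0.123 without 6-month cKO array 2. Sdha stood at -0.02 ± 0.25.

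Complex III had 3 of 11 genes higher in cKO, Uqcrc1, Uqcrb (1.13 ± 0.23) and Uqcr10. This share (27.3%) was near the 21.3% of probe sets that exceeded the array's median on 4 or more arrays. Complex IV had 7 of 18 higher (38.9%) and 1 lower. Cox7b rose by 1.74 ± 0.32 and Cox6a1 by 1.60 ± 0.36 (SE). In complex V, 2 of 17 genes were higher, Atp5g1 and Atp5md (0.91 ± 0.27), and the median change was 0.18, against 0.91 in control. The share higher in complex V (11.8%) was near the 12.7% of all probe sets. Atp5md, a small membrane subunit, lost its call in 3 of 16 omissions, at worst to an adjusted p of 0.078 without 6-month cKO array 2. Over all complexes, 23 of the 34 calls in cKO were kept in every omission of 1 array.

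The age comparisons of the genotypes share no arrays in their means, but they share the estimate of spread of each probe set, so their calls are not independent. The cKO call of Ndufa5, for example, was lost when 14-month control array 1, 2 or 3 was left out. With this limit the calls are set side by side. Of the 53 genes higher in control 32 were also called higher in cKO (60.4%), and these 32 were 97.0% of the 33 called in cKO. The overlap over all probe sets was not counted, so these shares have no background beside them and are not particular to the set. By complex, the shared genes were 18 in complex I, 2 in II, 3 in III, 7 in IV and 2 in V, and 10 of the 21 genes called in control and not in cKO belonged to complex V. In 63 of 87 genes the age change, with its sign, was higher in control. The genotype by age term, the age change in cKO minus that in control, was positive in 27.6% of the 87. It was positive in 54.0% of all probe sets and in 47.9% of those above the array's median on 4 or more arrays. The difference itself, tested as the genotype by age term, passed in 0 of 87 genes with limma (0.0766% of all probe sets passed, 0.0045% with a higher and 0.0721% with a lower term), with 9 genes at an unadjusted p under 0.05. Its median was -0.32, against 0.04 for all probe sets and -0.03 for the brighter ones. The smallest adjusted p among the 87 was 0.0955, for Cox7b2, with a term of 1.465, opposite in sign to the median. Its 14-month control mean lies at the floor of the array, so the size of this term is uncertain. Atp5g3 (-1.02 ± 0.33), Atp5pb (-1.04 ± 0.34) and Ndufa6 (-1.30 ± 0.42, adjusted p 0.331 to 0.334 for the 3) came next, all with a smaller age change in cKO that did not pass the test. Cox7a2l (-0.90 ± 0.38), Uqcrfs1 (-0.74 ± 0.30) and Sdhd (-0.81 ± 0.45) did not pass either.

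**Figure D3:**
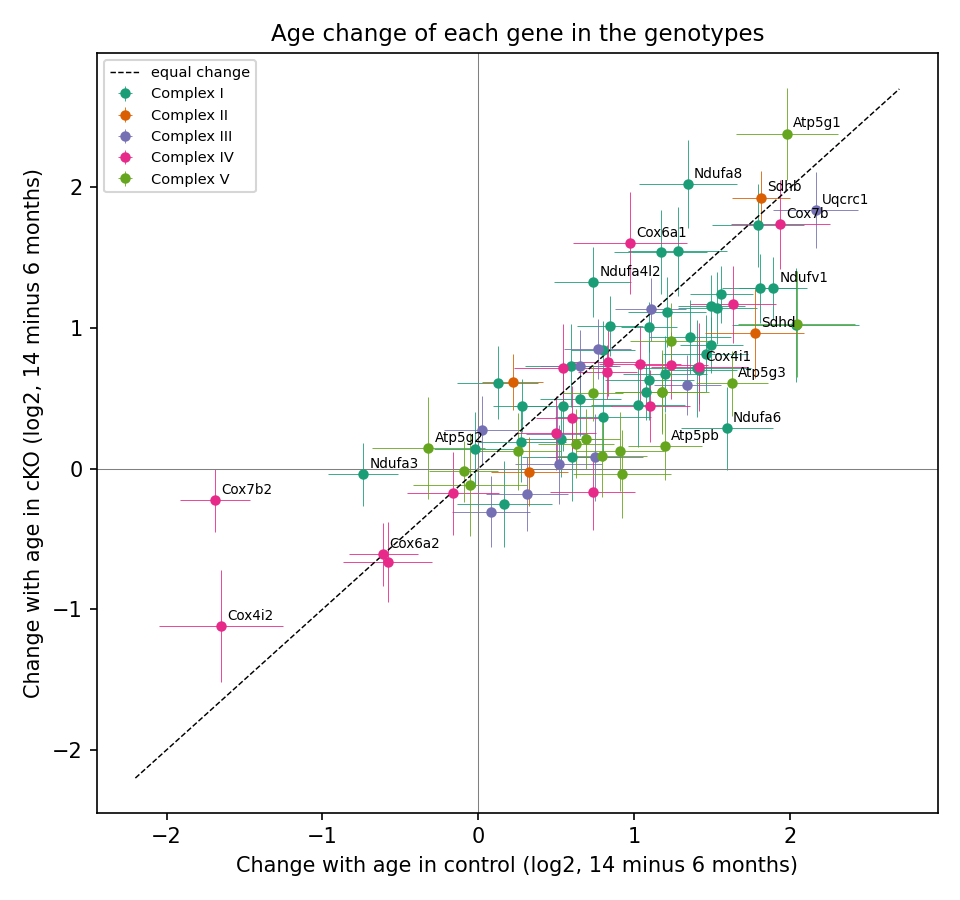
Age change of each gene (14 minus 6 months, log2) in control (horizontal axis) and in cKO (vertical axis), coloured by complex, with bars of 1 SE and a dashed line of equal change. Of the 87 genes 63 lie below the dashed line, and complex V has a median of 0.91 on the horizontal and 0.18 on the vertical axis.

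At 6 months, 7 of the 87 genes were higher and 1 lower on arrays labelled cKO than in control, where 3.45% of all probe sets were higher and 1.21% lower (4.66% in either direction). Of the 12421 brighter probe sets, above the array's median on 4 or more arrays, 5.92% were higher and 1.51% lower. Among other probe sets the share higher ran from 5.03% at mean values of 7 to 8 to 12.1% at 12 to 13. The 8.05% of the 87 called higher was near these shares. The 7 were Atp5g3, Atp5mpl and Atp5pb of complex V, Ndufa4, Ndufa6 and Ndufb4b of the complex I names, and Uqcrfs1 of complex III, and Ndufa3 was lower. The median difference of the 87 was 0.38 (log2), against -0.06 for all probe sets and 0.065 for the brighter ones. It was 0.57 in complex V, 0.39 in I, 0.34 in III, 0.28 in II and 0.23 in IV. A positive difference was found in 61 genes (70.1%), against 43.6% of all probe sets and 55.0% of the brighter ones. Every cKO array lay above every control array in 6 genes and below in 2, against 4.49% and 4.1% of all probe sets. Both counts were near those shares.

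Atp5g3, a c ring gene, read 9.02, 9.55, 9.56 and 9.13 in 6-month control and 11.09, 10.22, 10.13 and 10.61 in 6-month cKO. The groups did not overlap, and the difference was 1.2 ± 0.23 (SE; 2.29-fold, limma adjusted p = 0.00966). It passed in all 16 omissions of 1 array (adjusted p 0.00799 to 0.0349). Ndufa4 read 9.32, 9.25, 9.12 and 9.11 in control and 10.28, 9.91, 10.11 and 9.96 in cKO, again without overlap, a difference of 0.87 ± 0.20 (adjusted p = 0.02). Without 6-month control array 3 or 6-month cKO array 3 it did not pass, at an adjusted p of up to 0.0612.

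Uqcrfs1 was at 7.05 ± 0.20 in control and 7.99 ± 0.31 in cKO (SD, n = 4), and Atp5mpl, a small proteolipid of ATP synthase, at 9.98 ± 0.28 and 11.16 ± 0.39. Atp5pb, subunit b of the peripheral stalk, was at 9.71 ± 0.41 and 10.69 ± 0.35. These 3 also had no overlap between the groups. Ndufa6 (1.18 ± 0.29, SE) and Ndufb4b (1.53 ± 0.41) did overlap. Ndufa3 read 11.24, 11.04, 11.63 and 11.66 in cKO against 11.91 to 12.45 in control, a difference of -0.81 ± 0.22 (adjusted p = 0.0463), and all 4 cKO arrays were lower. It lost the call in 12 of 16 omissions, at worst to an adjusted p of 0.0988 without 6-month control array 1. Atp5mpl and Ndufb4b lost theirs in 5, Ndufa6 in 6, Uqcrfs1 in 4 and Atp5pb in 3 of 16, each without arrays of the compared groups. Of the genes that did not pass, those with the smallest p in their complexes were Cox7b2 (-0.70 ± 0.22) and Cox6b1 (0.71 ± 0.27) in IV, Sdhd (0.79 ± 0.32) and Sdha (0.58 ± 0.25) in II, and Uqcrc1 (0.82 ± 0.27) in III.

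The number of calls at 6 months rested on the samples and settings. Leaving out 1 array gave 2 to 16 calls: 2 without 6-month control array 3 or cKO array 4, 3 without control array 1, control array 4 or cKO array 1, 5 without cKO array 3, 14 without control array 2 and 16 without cKO array 2. It was 0 with sex as a covariate (median difference 0.53), 0 with female arrays only (4 against 1, median 0.75) and 0 without the cKO arrays with high neutrophil markers (median 0.39). Over all probe sets the calls went from 1035 to 61, 52 and 92 under these fits, so few calls were left to be found among the 87. Fitting the arrays of these groups alone gave 2. All 3 male arrays of these 8 were labelled cKO, and 2 of them were those with high neutrophil markers. The part of sex and of these markers in the differences was not tested beyond these fits. Over all probe sets, quantile normalization moved the share of higher among all calls from 74.0% to 61.8%, and 6 of the 87 genes were then higher and 1 lower.

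At 14 months, 0 of the 87 genes passed between arrays labelled cKO and control with limma, and 0% of all probe sets did. At an unadjusted p under 0.05 there was 1 of 87 genes and 795 of 22206 probe sets. The median difference was 0.10 (log2) and the differences ran from -0.42 to 0.76. In 1 gene, Cox7b2, every cKO array lay above every control array (4.72 to 5.37 against 3.96 to 4.52), and 0 lay below, against 1.26% and 1.33% of all probe sets. Its control mean, 4.30, lay below the receptor median of 4.77, so the size of its difference (0.76 ± 0.22, SE, limma adjusted p = 0.999) is not a measured fold. By complex, the smallest p belonged to Atp5mpl (0.55 ± 0.28) in V, Ndufc2 (0.54 ± 0.28) in I, Uqcrc1 (0.50 ± 0.27) in III and Sdhc (0.30 ± 0.20) in II. The sign of the median turned with male arrays only, of which control had 1, to -0.10. A gap of the size of the SE, about 0.26 for the median gene, was not detectable with these arrays.

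Genes with isoforms allow a comparison within an array. Cox4i1 and Cox4i2 encode alternative forms of subunit 4 of cytochrome c oxidase, and Cox4i2 is the form known to be induced by low oxygen. Cox4i1 read 11.20, 11.79, 10.73 and 11.49 in 6-month control and 12.80, 12.87, 12.37 and 12.84 in 14-month control, a rise of 1.42 ± 0.31 (SE, limma adjusted p = 0.00221). Cox4i2 read 13.33, 13.45, 13.64 and 12.90 and then 11.07, 11.92, 12.61 and 11.12, a fall with a log2 change of -1.65 ± 0.40 (adjusted p = 0.00413). In both genes the ages did not overlap in control, and the directions were opposite.

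On arrays labelled cKO, Cox4i1 did not pass (0.72 ± 0.31, SE), and Cox4i2 went from 14.39, 12.38, 12.64 and 13.36 to 11.90, 11.64, 12.75 and 12, with overlap. Its change was -1.12 ± 0.40 (limma adjusted p = 0.0497), and it lost the call in 10 of 16 omissions, at worst to an adjusted p of 0.15 without 6-month cKO array 1. Cox4i2 minus Cox4i1, each centred on its own mean, was 1.49 ± 0.66 in 6-month control, 0.97 ± 0.48 in 6-month cKO, -1.58 ± 0.93 in 14-month control and -0.88 ± 0.63 in 14-month cKO (SD, n = 4). The 6-month arrays lay between 0.39 and 2.37 and the 14-month arrays between -2.27 and 0.02. Between genotypes, Cox4i2 differed by -0.14 ± 0.40 at 6 months and 0.39 ± 0.40 at 14 months, and Cox4i1 by 0.38 ± 0.31 and -0.31 ± 0.31 (SE), none of them past the test. The 6-month sign of Cox4i2 was not stable: with sex as a covariate it was 0.67.

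The other inducible gene, Ndufa4l2, a paralog of Ndufa4 known as a HIF target, did not fall. It read 16.90, 17.45, 16.98 and 17.35 in 6-month control and 17.72, 18.09, 17.80 and 18.01 in 14-month control, a rise of 0.73 ± 0.25 (SE, limma adjusted p = 0.0285). On arrays labelled cKO it went from 17.51, 16.13, 16.62 and 17.12 to 18.12, 18.01, 18.22 and 18.34, a rise of 1.33 ± 0.25. The ages did not overlap in either genotype, and between genotypes it differed by -0.33 ± 0.25 at 6 months and 0.27 ± 0.25 at 14 months without passing. The call of Ndufa4l2 in control was lost in 4 of 16 omissions, at worst to an adjusted p of 0.0806 without 6-month control array 1. Ndufa4 rose by 1.07 ± 0.20 in control and stood at 0.54 ± 0.20 in cKO (adjusted p = 0.0536).

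Of the heart and muscle forms of complex IV, Cox6a2 fell in control, from 6.59 ± 0.25 to 5.98 ± 0.15 (SD, n = 4), a change of -0.61 ± 0.22 (SE, limma adjusted p = 0.0403). This call was lost under quantile normalization (-0.42, adjusted p = 0.156), with arrays shifted to one median (adjusted p = 0.151) and in 7 of 16 omissions, at worst to an adjusted p of 0.103 without 6-month control array 2. Cox7a1 stood at 0.49 ± 0.26 and Cox8b at 0.54 ± 0.31 in control, neither past the test, while the general forms Cox7a2 (1.10 ± 0.25) and Cox8a (1.03 ± 0.26) rose. In cKO, Cox6a2 (-0.61 ± 0.22), Cox7a1 (0.25 ± 0.26), Cox8b (0.72 ± 0.31) and Cox7a2 (0.45 ± 0.25) did not pass, and Cox8a did (0.75 ± 0.26, adjusted p = 0.0487, lost in 12 of 16 omissions and at worst 0.167 without 6-month cKO array 2). On 14-month control array 4, where muscle markers were high, Cox6a2 read 6.11, Cox7a1 6.72 and Cox8b 5.44, against 5.79 to 6.09, 6.77 to 7.42 and 5.67 to 6.67 on the other arrays of that group. Cox6a2 was thus highest on this array and the others were lowest.

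Of the testis forms, Cox7b2 fell in control from 5.82, 5.51, 6.16 and 6.46 to 4.52, 4.36, 4.35 and 3.96, a change of -1.69 ± 0.22 (SE, limma adjusted p = 4.11e-05) with no overlap. In cKO it stood at -0.23 ± 0.22. Its 14-month control mean of 4.30 lay below the median of 4.77 of the receptor probe sets, so that mean lies at the floor of the array. Cox6b2 lay below that median in all 4 groups, and Cox8b in both 6-month groups. Cox6b2 stood at -0.16 ± 0.30 in control and -0.17 ± 0.30 in cKO and Cox8c at -0.58 ± 0.28 and -0.67 ± 0.28, none past the test. Cox6b1, the general partner of Cox6b2, rose by 1.63 ± 0.27 in control and 1.17 ± 0.27 in cKO.

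The 3 genes for subunit c of ATP synthase encode the same mature protein and differ in their import sequences. Atp5g1 went from 10.54 ± 0.30 to 12.52 ± 0.62 in control and from 10.26 ± 0.65 to 12.64 ± 0.40 in cKO (SD, n = 4). Atp5g2 did not pass in either: it read 14.84 to 15.45 at 6 months and 14.16 to 15.52 at 14 months in control, a difference of -0.32 ± 0.36 (SE), and 0.14 ± 0.36 in cKO. Atp5g3 rose in control by 1.63 ± 0.23 (limma adjusted p = 7.22e-05) and stood at 0.61 ± 0.23 in cKO (adjusted p = 0.0654), where its 6-month arrays already read 10.13 to 11.09. The comparison of genotypes at 6 months and that of ages in control share the 6-month control arrays, which read 9.02 to 9.56 for Atp5g3.

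**Figure D4:**
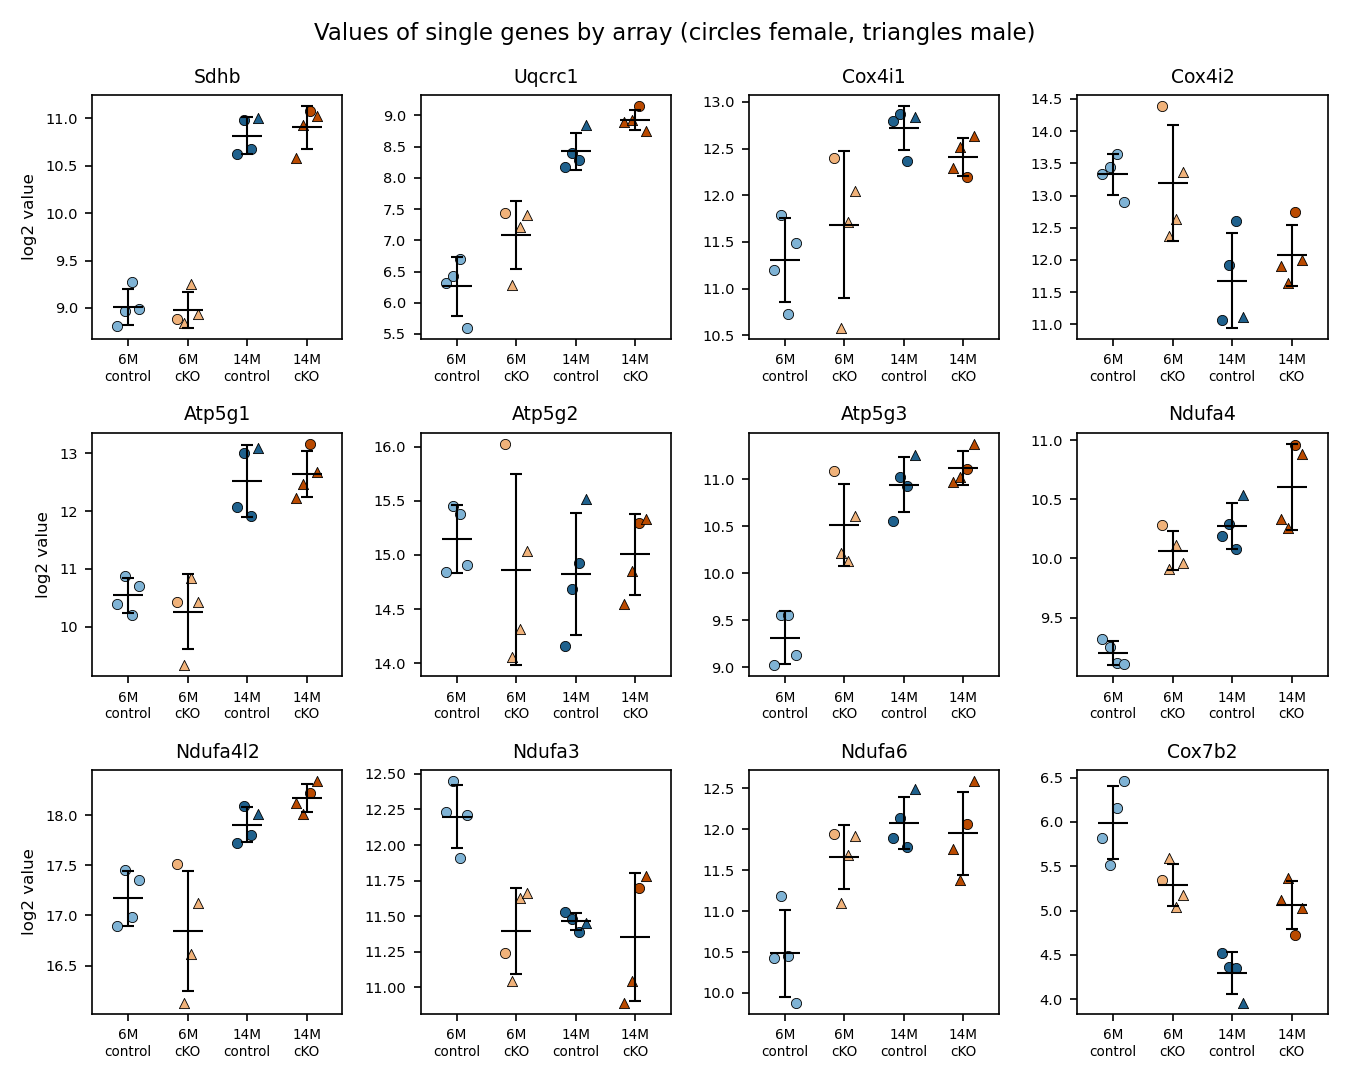
Deposited log2 values (vertical axes, each panel with its own range) of 12 genes on every array by group; circles are female and triangles male arrays, and bars give the mean and SD of 4 arrays. Sdhb and Uqcrc1 separate the ages in both genotypes, Cox4i1 and Cox4i2 move in opposite directions in control, and Atp5g2 overlaps in all groups.

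Since bright probe sets tended to read higher at 14 months, the genes were set beside all other probe sets of like mean value. Ranges of mean value that held 10 or more of the genes were compared. In control, the median age change for mean values from 7 to 8 was 0.79 for 11 genes of the set and 0.17 for 2504 others, and from 8 to 9 it was 0.60 for 13 genes and 0.33 for 2015 others. From 9 to 10 it was 1.30 for 10 genes and 0.45 for 1571 others. From 11 to 12 it was 1.10 for 17 genes and 0.53 for 734 others, and from 12 to 13 it was 1.00 for 10 genes and 0.46 for 495 others. In cKO the medians for these 5 ranges were 0.62 against 0.13, 0.27 against 0.26, 0.83 against 0.33, 0.45 against 0.37, and 0.74 against 0.34. The median of the genes exceeded that of the others in each of these ranges, with the smallest gap from 8 to 9 in cKO. In control, 6 of 11, 5 of 13, 8 of 10, 11 of 17 and 7 of 10 genes in these ranges were called higher. Of the others in control, 22.6%, 31.0%, 38.6%, 43.2% and 42.0% were, so from 8 to 9 the share was near theirs. In cKO, 5 of 11, 4 of 13, 5 of 10, 5 of 17 and 5 of 10 genes in these ranges were called higher. Among the others the shares were 17.9%, 23.8%, 28.7%, 30.25% and 29.9%, so from 11 to 12 the share was near theirs. At 6 months the medians of cKO minus control were 0.11 against -0.0075, 0.49 against 0.09, 0.35 against 0.145, 0.54 against 0.26, and 0.41 against 0.21. Quantile normalization, which gives all arrays one distribution, reduced the median age change of the 87 to 0.64 in control and 0.44 in cKO.

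**Figure D5:**
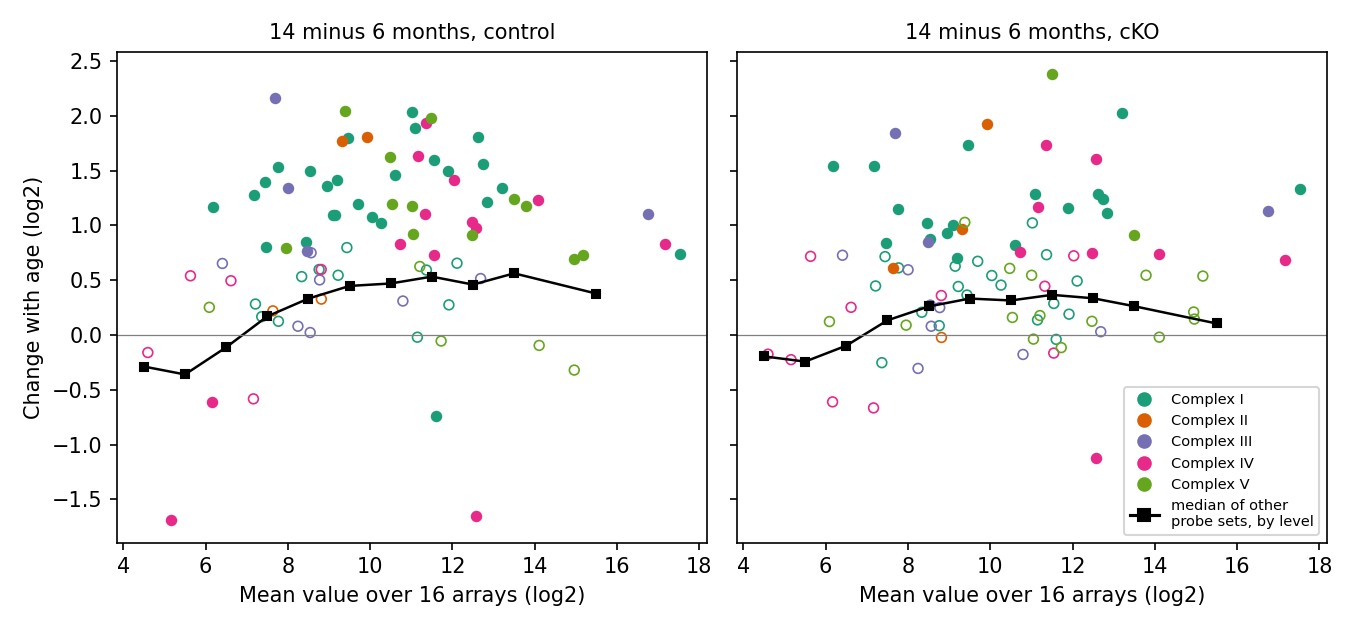
Age change (14 minus 6 months, log2) against mean value over 16 arrays (log2) for each gene, in control (left) and cKO (right); filled points passed the test, open points did not, and black squares are medians of all other probe sets in bins of mean value. Most filled points lie above the black line, which itself rises above 0 for bright probe sets.

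Genes around the respiratory chain were counted by functional list, beside the shares of all probe sets: 16.8% higher and 17.3% lower with age in control, 12.7% and 10.2% with age in cKO, and 3.45% higher at 6 months. Of the brighter probe sets, above the array's median on 4 or more arrays, 28.8% were higher with age in control, 21.3% in cKO and 5.92% at 6 months. Of 17 other electron transport genes, 7 were higher (41.2%) and 1 lower with age in control and 3 higher (17.6%, below the share of brighter probe sets) in cKO. Among them, Atpif1, the inhibitor of the ATP synthase, rose by 1.93 ± 0.33 in control and 2.06 ± 0.33 in cKO (SE), and Ndufab1, a complex I subunit outside the symbol rule, by 0.89 ± 0.20 in control. Cyc1, cytochrome c1 of complex III, stood at 0.33 ± 0.25 in control and 0.15 ± 0.25 in cKO. Of 41 assembly factors, which build the complexes, 11 were higher (26.8%) and 1 lower in control and 5 higher (12.2%, near the share of all probe sets) in cKO, led by Tmem126b of complex I (1.26 ± 0.20 and 1.12 ± 0.20). Of 53 mitochondrial ribosomal proteins, 25 were higher (47.2%) and 1 lower in control and 11 higher (20.8%, near the share of brighter probe sets) in cKO. At 6 months, 2 of the 41 assembly factors (Ndufaf3 and Atpaf2), 3 of the 53 ribosomal proteins and 0 of the 17 transport genes were higher on arrays labelled cKO, the first 2 shares (4.88% and 5.66%) being near that of all probe sets.

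Of 18 genes of the tricarboxylic acid cycle and pyruvate dehydrogenase, which feed electrons to the chain, 7 were higher (38.9%) and 1 lower with age in control, and 5 higher (27.8%) and 2 lower (11.1%) in cKO. Idh2, the mitochondrial NADP-linked isocitrate dehydrogenase, rose by 2.83 ± 0.35 in control and 2.27 ± 0.35 in cKO (SE). Ogdh of the oxoglutarate dehydrogenase complex fell in both (-0.98 ± 0.28 and -0.79 ± 0.28). Of 15 regulators of mitochondrial biogenesis, 4 were higher in control (26.7%: Tfam, Yy1, Gabpb1 and Nrf1) and 3 in cKO (20%: Yy1, Nrf1 and Gabpa). Both shares were near those of the brighter probe sets. Nrf1, the factor whose letters were counted above, rose by 0.81 ± 0.29 in control and 0.95 ± 0.29 in cKO, with limma adjusted p-values of 0.041 and 0.0265.

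A list of 12 HIF-linked genes that act on mitochondria or fuel use had 10 higher (83.3%) with age in control and 3 (25%) in cKO. The share in cKO was near the 21.3% of brighter probe sets. Bnip3, which marks mitochondria for mitophagy, rose by 3.23 ± 0.26 in control and 1.90 ± 0.26 in cKO, and Higd1a, a protein of the respiratory supercomplexes, by 3.65 ± 0.30 and 2.11 ± 0.30 (SE). At 6 months 7 of the 12 (58.3%) were higher on arrays labelled cKO, among them Slc2a1, a glucose transporter (1.32 ± 0.17), Bnip3 (1.96 ± 0.26) and Pdk1, which holds pyruvate back from the cycle (1.22 ± 0.22). Over all probe sets, the calls at 6 months went from 1035 to 61 with sex as a covariate. They went to 92 without 6-month cKO arrays 3 and 4. Whether the 7 genes keep their calls in these fits was not examined. Slc2a1 passed the genotype by age term (-1.29 ± 0.24, limma adjusted p = 0.0462), with a smaller age change in cKO. This call lay near the threshold, and whether it held in other fits was not examined. Over all probe sets 17 passed this term, but 2 to 217 did when single arrays were left out. Without 6-month cKO arrays 3 and 4 it was 3. At 14 months 0 genes of these 6 lists passed between the genotypes.

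The share of genes with each motif was also set beside the age call in control. NRF1 letters stood in a window of 26.7% of 45 genes that rose and of 22.2% of the 27 others, and GABPA letters in 24.4% and 22.2%. For YY1 the shares were 8.9% and 11.1%, and for ERR 11.1% and 14.8%. The HIF core stood in a window of 7 of the 45 genes that rose (15.6%) and of 12 of the 27 others (44.4%). These are counts over 72 genes, given as a description.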

How the data were processed

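Total RNA of nucleus pulposus was measured on 16 Affymetrix arrays, in 4 groups of 4 taken from the sample titles. The deposited table holds 1 log2 value per probe set and array, between 2.46 and 19.93, a scale read from the values. As to software, background correction, summarizing and build: not given in the sources used here. Values were used as deposited, and 0 further per-sample columns were present. Gene symbols came from the platform's annotation (19572 of 22206 with 1 symbol, 0 with several, 2634 with none), and all 87 genes matched RefSeq by Entrez identifier. Values of different probe sets are not comparable as levels. Signal over background is not given, and the number of arrays limits the precision.

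A linear model of 4 group means over all 16 arrays was fitted by limma (3.58.1, lmFit then eBayes; R 4.3.3). Calls are two-sided at a Benjamini-Hochberg adjusted p under 0.05 over all 22206 probe sets. Of the 87 genes 84 exceeded the array's median on 4 or more arrays. A gene was named when it was among the 8 called of smallest p in a direction and comparison, among the 2 of smallest p in its complex, in an isoform set or complex II, or had the highest or lowest mean of its complex. Of the list genes, up to 4 of smallest p were open to naming. Further genes, among them core, F1, stalk and assembly genes and those lost in omissions, were named after their values were seen, to complete a count. The members and lists were chosen with earlier results of these data known. Sex was read from a mean of Eif2s3y, Kdm5d and Uty above 6. Replicate numbers did not pair the arrays: deviations of same-numbered arrays correlated between -0.28 and 0.27. A planned correlation of each gene with the others is not given, since the arrays cluster by age. Alternatives were quantile normalization, a shift to one median, a filter on dim probe sets, 1 probe set per gene, a trended and robust prior, array weights, only the groups compared, the replicate block, sex as a covariate, omission of single arrays and of 2 arrays with high neutrophil markers, and a threshold of 0.10. Fits on 1 sex only were chosen after seeing the data. Figures used matplotlib 3.10.9 in Python 3.11.15.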

Additional observations from a re-analysis of the deposited data

Results flagged for a closer look

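In 8 of 216 groups examined, 1 array stood apart from the other 3, which chance gives in about 1 in 20 groups. On 14-month control array 3, Cox4i1 read 12.37 with the nearest array at 12.80, Ndufs3 12.31 with the nearest at 12.48, and Ndufc2 11.95 with the nearest at 11.71. On 14-month control array 1, Cox6b2 read 4.27, below the receptor level, with the nearest at 4.67. On 6-month cKO array 1, the female array of its group, Uqcrb read 17.03 against 16.21 for the next. Uqcrfs1, the Rieske protein, was high on 6-month control array 2 (7.35 against 6.96) and on 6-month cKO array 4 (8.45 against 7.87), and its genotype call was lost without the latter (0.78, adjusted p 0.081). The median deviation of all 87 genes on 6-month control array 2 was -0.26, with the nearest array at -0.63, and leaving it out raised the calls at 6 months to 14.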

How the results depend on the processing

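For the 87 genes, the counts of calls with age stayed within 1.5 times the reported ones in control under every alternative run and in cKO under every alternative but female arrays only, where 1 array against 1 gave 3 and says nothing about stability. At 6 months the count of 8 became 2 with only the arrays of the groups compared, 0 with sex as a covariate, 0 without 6-month cKO arrays 3 and 4, 0 with female arrays only and 14 at an adjusted p under 0.10, where the genotype by age term gave 1. The gene that passed the genotype by age term at 0.10 was Cox7b2, whose 14-month control mean lies at the floor of the array. Leaving out each array gave 2 to 16 calls at 6 months, 0 at 14 months, 50 to 62 for age in control, 25 to 41 for age in cKO and 0 to 1 for the genotype by age term. The medians then ranged from 0.21 to 0.48, 0.00 to 0.18, 0.80 to 1.02, 0.44 to 0.70 and -0.42 to -0.19. With female arrays only the median was 0.75 at 6 months and 0.33 for age in cKO, and with male arrays only it turned to -0.10 at 14 months. Fits with fewer arrays have fewer degrees of freedom, and otherwise the cause was not tested. A fit with male arrays only was not possible at 6 months, in control or for the genotype by age term, since 6-month control has 0 male arrays.

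With the replicate block, although the numbers do not pair the arrays, 7 genes were called at 6 months, 0 at 14 months, 55 with age in control, 30 in cKO and 0 for the genotype by age term.

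Among single genes, signs that turned belonged to genes not past the test, here or in the alternative. With age in cKO, Atp5g2 ranged from -0.12 to 0.53 in omissions of single arrays, and was -0.0375 without 6-month cKO arrays 3 and 4 and -0.73 with female arrays. Atp5k was -0.16 without 6-month cKO arrays 3 and 4, Cox4i1 was -0.21 with female arrays, and Cox6b2 was 0.0467 with male arrays and 0.0348 after quantile normalization. Sdha was 0.11 with arrays shifted to one median, -0.21 to 0.15 in omissions of single arrays, 0.12 without 6-month cKO arrays 3 and 4 and 0.03 with female arrays. With age in control, Cox6b2 was 0.13 after quantile normalization, 0.035 after the shift and -0.37 to 0.19 in omissions of single arrays. At 6 months Cox4i2 was 0.67 with sex as a covariate, -0.54 to 0.13 in omissions of single arrays, 0.055 without 6-month cKO arrays 3 and 4 and 1.06 with female arrays, and Ndufa4l2 was 0.34 with female arrays. At 14 months Atp5mpl was -0.13 with male arrays. The 4 arrays a group and the floor of the array limit what can be seen of dim isoforms such as Cox6b2, Cox7b2 and Cox8b.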
